A study of Mus musculus with 6 samples.

Results

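The nuclear genes named for the 5 complexes of the mitochondrial respiratory chain were examined in Ink4a-/- mouse astrocytes with and without a vector for JAG1, the Notch ligand Jagged1. They were taken by name alone: every gene row whose symbol follows the patterns Ndufa, Ndufb, Ndufc, Ndufs, Ndufv or Ndufab with a number (complex I), Sdha to Sdhd (complex II), Uqcr (complex III), Cox4 to Cox8 (complex IV) or Atp5 (complex V). The rule took 85 of the 23282 rows: 38 of complex I, 4 of complex II, 8 of complex III, 18 of complex IV and 17 of complex V. A filter on low counts left 80 of them for testing. Some names do not match the position of the protein: Ndufa4 is known as a subunit of complex IV, Cox7a2l as a factor that joins complexes III and IV, and Atp5s and Atp5sl, listed by RefSeq as Dmac2l and Dmac2, are not subunits of the synthase. They are described here under the complex of their symbol.

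Complexes I and II take electrons from NADH and succinate and pass them through ubiquinone to complex III, cytochrome c and complex IV, where oxygen is reduced. Complexes I, III and IV pump protons across the inner membrane, and complex V, the ATP synthase, uses the gradient to make ATP. Apart from complex II, each complex joins subunits of nuclear genes with subunits of the mitochondrial genome, and astrocytes are known for drawing much of their ATP from glycolysis while keeping a working respiratory chain.

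Control cells received the vector pcDNA3.1-puro without an insert and JAG1 cells received pcDNA3.1-JAG1-puro, with 3 sequenced libraries of each. All 6 share the Ink4a-/- background, written Ink4a/Arf-/- in the study, although the genotype label of the controls reads WT, and the JAG1 libraries are labelled as overexpressing JAG1. The sources used here do not say if replicates are separate transfections or 1 selected population. The p-values may therefore measure technical spread alone. The libraries were made by QuantSeq, which reads the 3′ end of polyadenylated RNA. Values are CPM, the reads of a gene per 1000000 reads of its library after TMM normalization. Because each transcript is read once at its 3′ end, CPM was used for comparing genes without a correction for length. In these bulk samples, fewer cells of a type and less RNA per cell cannot be told apart.

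The libraries held between 14341634 and 20489062 reads on genes, so that 3 reads, taken as the limit of detection, equal 0.148 to 0.206 CPM, a limit that covers counting error only. Jag1 was read at 8.99, 10.8 and 11.2 CPM in control and 15.2, 13.6 and 13.8 CPM in JAG1, without overlap (log2 fold change 0.46, standard error 0.11, adjusted p = 0.00446 by edgeR's quasi-likelihood test, as for all adjusted p-values below). Whether the vector's transcript ends in sequence that these reads can assign to Jag1 is not given, so this row does not check the transfection. Of the 13 astrocyte markers examined, Gfap and Aqp4 had 0 reads in every library, and Slc1a2, Slc1a3 and Fabp7 had under 3. Other markers of the list were read in control, among them Vim at 3106 ± 221 CPM, Gja1 at 151 ± 35.8 CPM, Nes at 88.3 ± 4.55 CPM, Glul at 26.8 ± 2.18 CPM and Aldh1l1 at 2.98 ± 0.545 CPM (SD, n = 3). Among the 8 tested, 7 were lower in JAG1 cells and 0 higher, beside 27.7% and 27.4% of all tested genes, with Sox9 at 186, 180.0 and 177 CPM in control and 18.1, 19.1 and 16.6 CPM in JAG1. The summed level of the list, mostly Vim, was 3294 to 3780.2 CPM in control and 3358 to 3424 CPM in JAG1. Neuron markers summed to 100.3 to 109.9 CPM in control and 58.6 to 61.7 CPM in JAG1, with Syt1 and Snap25 at 0. Within that sum Tubb3 fell from 78.2 to 8.40 CPM in mean and Map2 rose from 25.1 to 51.3 CPM. Fibroblast markers summed to 323 to 325 and 214 to 257 CPM, with Lum at 0, 3 genes lower and Col1a2 higher (3.35 to 50.7 CPM in mean). Microglial markers were at 3.30 to 4.03 CPM in control and 1.64 to 2.48 CPM in JAG1. Oligodendrocyte lineage markers were at 3.45 to 4.56 and 4.13 to 4.80 CPM with Olig1, Mog, Sox10 and Cspg4 at 0, and endothelial and mural markers within 0 to 0.322 CPM with Rgs5 and Kcnj8 at 0. Their part in the values of the respiratory chain genes was not tested.

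Of the 80 tested respiratory chain genes, 25 were higher in JAG1 cells, 9 were lower and 46 did not pass the threshold of 0.05. Over all 11712 tested genes the shares were 27.4% higher and 27.7% lower. The share of higher members lay near the background and the share of lower members, 9 of 80, below it. The groups did not overlap in 34 members with JAG1 above control and in 11 with JAG1 below. Over all 11712 tested genes this held for 3643 and 3617, so that groups without overlap were common. Most members are highly expressed, with mean levels from 1.34 to 2045 CPM and a median of 141 CPM. Among the 68 members at 50 CPM or more, 25 were higher and 6 lower, beside 32.7% higher and 26.4% lower of all 3637 tested genes at that level. Most changes were small. The median log2 fold change of the tested members was 0.10, that of all tested genes 0.0039 and that of all tested genes at 50 CPM or more 0.04. The quartiles of the members were −0.01 and 0.22 against −0.33 and 0.30 for all tested genes. With a change of at least 1.5-fold added to the rule, 4 members were higher (Ndufv1, Ndufs8, Ndufb8 and Cox8a) and 3 lower (Atp5sl, Ndufa4l2 and Atp5g2), beside 11.9% and 14.6% of all tested genes.

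**Figure D1:**
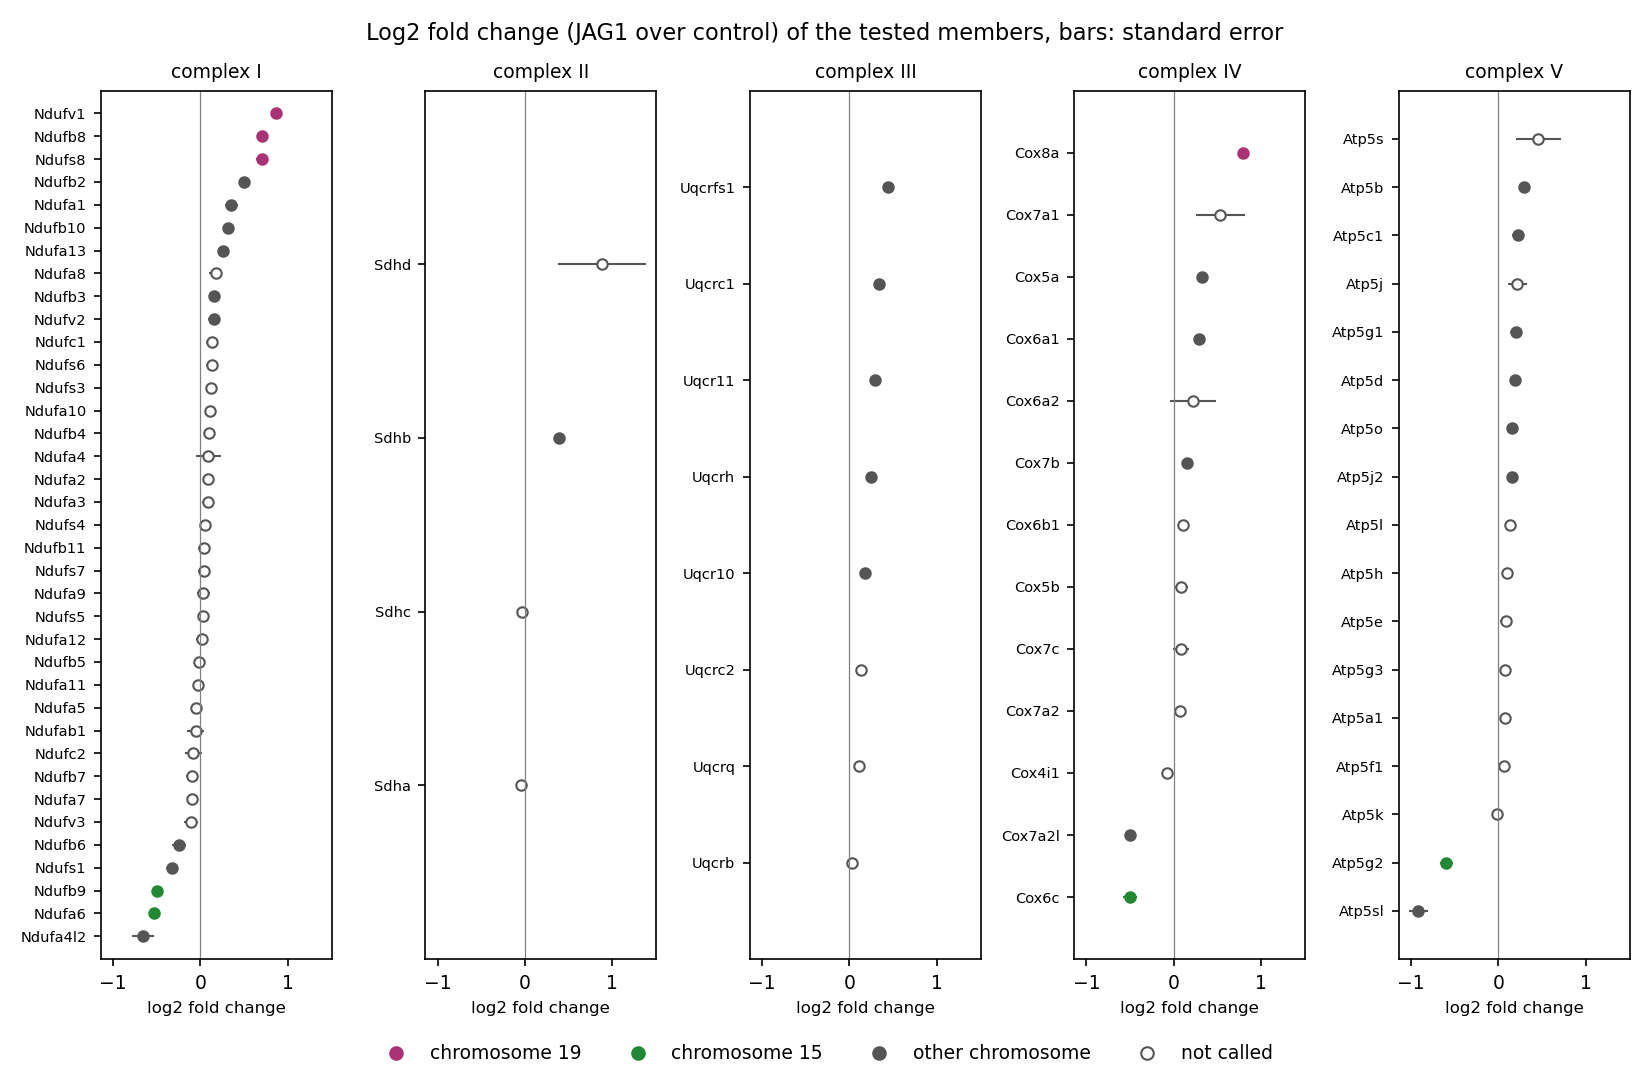
Log2 fold change of JAG1 over control (x axis) for tested members, in 1 panel per complex, with the standard error as a bar, filled points for an adjusted p under 0.05 and colours for chromosomes 15, 19 and all others. Complex III lies wholly to the right of 0, complex I spreads to both sides of it, and the points of chromosome 19 lie at the top of complexes I and IV while Ndufa4l2 and Atp5sl, of other chromosomes, lie below those of chromosome 15.

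Added up over its rows, the level of every complex was higher in JAG1 cells. Complex III summed to 2037, 1948 and 1941 CPM in control and 2255, 2347 and 2355 CPM in JAG1, without overlap and 17.4% higher in mean (1975 ± 53.5 against 2319 ± 55.6 CPM, SD, n = 3). Complex II summed to 529.5, 563 and 625 CPM in control and 657, 696 and 713 CPM in JAG1, 20.3% higher (572 ± 48.5 against 689 ± 28.5 CPM), with the widest spread of the 5. Complex I gave 5051, 4953 and 4993 CPM in control and 5339, 5496 and 5463 CPM in JAG1, 8.67% higher (4999 ± 49.4 against 5433 ± 82.6 CPM). In none of the 5 sums did the libraries of the groups overlap. Complex IV gave 3053, 3025 and 3130.2 CPM in control and 3276, 3291 and 3346 CPM in JAG1, 7.66% higher (3069 ± 54.5 against 3304 ± 37.1 CPM). Complex V gave 5525, 5602 and 5791 CPM in control and 5936, 6277 and 6171 CPM in JAG1, 8.67% higher (5639 ± 137 against 6128 ± 175 CPM). All 85 rows together were at a mean of 16255 ± 202 CPM in control and 17873 ± 356 CPM in JAG1, 9.95% higher. The exact permutation test of 3 against 3 libraries cannot give a two-sided p under 0.1. No test was made of these sums, because they are taken over chosen members. Single rows weigh heavily in them: Uqcrh made up 33.7% of complex III, Sdhb 41.7% of complex II, Atp5g3 34.7% of complex V, Cox8a 15.4% of complex IV and Ndufb8 13.98% of complex I. Without Ndufb8 the log2 ratio of complex I went from 0.12 to 0.03, and without Cox8a that of complex IV from 0.11 to −0.02, whereas complex III went from 0.23 to 0.22 without Uqcrh. Ndufb8 and Cox8a both lie on chromosome 19. Without all members of chromosomes 15 and 19 the ratios of complexes I and IV stayed positive, as given in the last section.

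**Figure D2:**
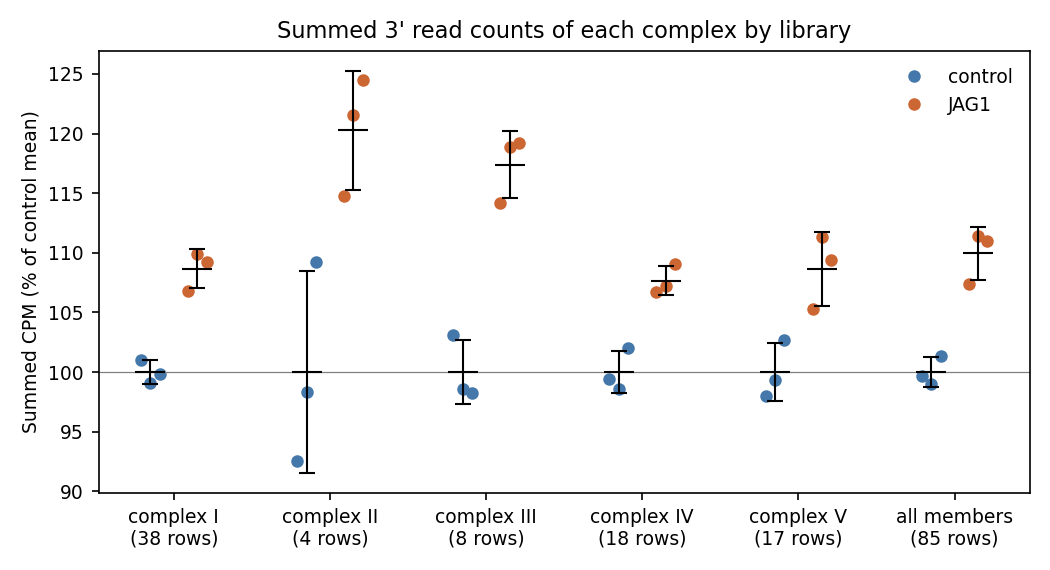
Summed CPM of each complex in each library, as a percentage of the control mean (y axis, which starts at 90), with points for libraries and bars for mean ± SD over 3 libraries. The JAG1 points lie above the control points in all 5 complexes and in the sum over the 85 rows, and the difference of the means is widest in complexes II and III.

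All 8 members on chromosomes 15 and 19 changed, and they did so in the direction of most genes there. On chromosome 19 the 4 members Ndufv1, Ndufb8, Ndufs8 and Cox8a were higher in JAG1 cells, with a median log2 fold change of 0.75. Of the 422 tested genes of that chromosome 74.2% were higher, and their median was 0.61. On chromosome 15 the 4 members Ndufa6, Ndufb9, Cox6c and Atp5g2 were lower, with a median of −0.52. Of the 459 tested genes there 75.4% were lower, and their median was −0.53. Among the 72 tested members on the other chromosomes, 21 were higher and 5 lower, beside 26.5% higher and 26.5% lower of the 10775 tested genes there. Their median was 0.10 against 0.0050. Of these 72, Ndufb2, Cox7a2l, Ndufa4l2 and Atp5sl were the called members with a log2 fold change of at least 0.5 in size, and Ndufs1 and Ndufb6 were the other ones lower. What part the chromosome had in the change of any single member was not tested.

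**Figure D3:**
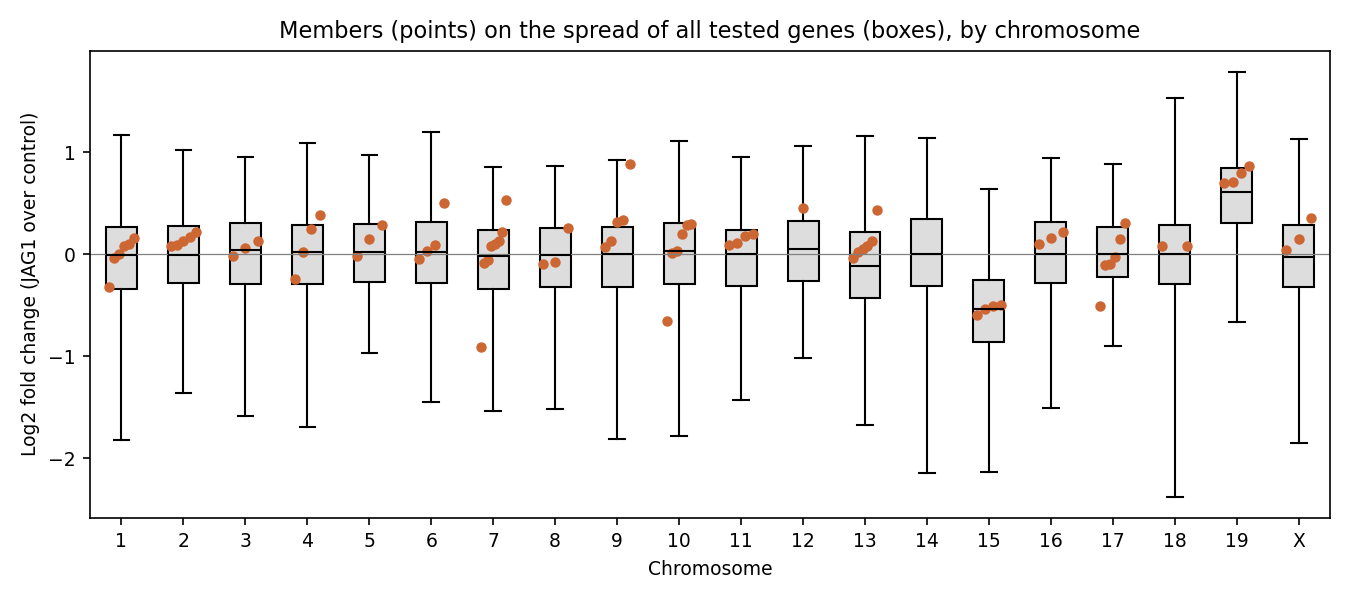
Log2 fold change of JAG1 over control (y axis) by chromosome (x axis), with boxes for the quartiles and median of all tested genes, whiskers for the 5th and 95th percentiles and points for the members. The 4 members of chromosome 19 lie between 0.70 and 0.87 and the 4 of chromosome 15 between −0.60 and −0.49, inside the whiskers of their chromosome.

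Many promoters of respiratory chain genes are known to bind NRF1, GABP (an ETS factor), YY1 and the estrogen-related receptors, and the 250 bases before the transcript starts listed by RefSeq (GRCm38.p6) were searched on both strands for a core of each motif. A window was found for 70 of the 85 members, 76 windows in all. The NRF1 core GCATGCGC was in 8 of these 76 windows, or 10.5%, and in 2.26% of all 32851 windows. The ETS core CCGGAAG was in 15.8% against 6.91%, the YY1 core AANATGGC in 9.21% against 3.91%, and the estrogen-related receptor core AAGGTCA in 6.58% against 4.08%. The comparison takes all windows, whether or not their gene was tested here. No share over highly expressed genes alone was computed. The 8 members with the NRF1 core did not share a direction: Sdhb and Cox6a1 were higher, Ndufa6 and Atp5g2 lower, and Ndufa8, Ndufa11, Atp5k and Atp5l did not pass the test. Both lower genes lie on chromosome 15, where 75.4% of the tested genes were lower, and what part the chromosome had was not tested. The windows of the 4 called members are shown, each ending at the base before the start, with the core, or its overlapping matches on both strands, in capitals. They lie at chr4:140961021-140961270 (plus strand), chr5:115348959-115349208 (minus strand), chr15:82354292-82354541 (minus strand) and chr15:102671048-102671297 (minus strand).
Sdhb: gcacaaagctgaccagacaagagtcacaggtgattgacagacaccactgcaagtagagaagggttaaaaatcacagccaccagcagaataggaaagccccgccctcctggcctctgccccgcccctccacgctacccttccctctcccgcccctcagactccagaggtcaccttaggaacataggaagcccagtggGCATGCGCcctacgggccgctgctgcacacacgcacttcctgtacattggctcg
Cox6a1: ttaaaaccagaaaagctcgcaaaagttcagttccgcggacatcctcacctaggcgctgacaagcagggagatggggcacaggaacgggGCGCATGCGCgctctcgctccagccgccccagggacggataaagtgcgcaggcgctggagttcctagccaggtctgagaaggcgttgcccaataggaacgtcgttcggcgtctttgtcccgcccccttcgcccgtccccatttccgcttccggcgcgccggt
Ndufa6: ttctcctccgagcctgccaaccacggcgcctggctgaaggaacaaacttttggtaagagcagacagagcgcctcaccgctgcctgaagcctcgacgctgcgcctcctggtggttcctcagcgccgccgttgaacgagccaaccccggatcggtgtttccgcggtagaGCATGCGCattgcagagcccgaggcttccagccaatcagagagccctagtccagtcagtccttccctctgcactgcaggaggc
Atp5g2: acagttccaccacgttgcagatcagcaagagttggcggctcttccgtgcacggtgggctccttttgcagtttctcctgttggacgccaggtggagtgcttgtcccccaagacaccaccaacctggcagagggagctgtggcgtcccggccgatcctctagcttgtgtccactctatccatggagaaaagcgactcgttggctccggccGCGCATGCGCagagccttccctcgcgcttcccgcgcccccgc
In the 2 higher and the 2 lower genes the capitals are the same core, at differing distances from the start. A match of letters is a description and does not show a bound site.

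Complex I had 9 higher, 5 lower and 24 uncalled genes, or 23.7% higher and 13.2% lower beside 27.4% and 27.7% of all tested genes. Of all tested genes at 50 CPM or more, where 31 of the 38 lie, 32.7% were higher and 26.4% lower. The median of the log2 fold changes of complex I was 0.05. Among its nuclear core subunits, which carry the flavin and the iron-sulfur clusters, Ndufv1, the NADH-oxidizing subunit, was read at 75.01, 66.5 and 65.2 CPM in control and 125, 122 and 130.2 CPM in JAG1 (log2 fold change 0.87, standard error 0.07, adjusted p = 7.98e-07). The iron-sulfur subunit Ndufs8 was at 54.6, 53.7 and 49.3 CPM in control and 79.6, 91.2 and 85.9 CPM in JAG1 (log2 fold change 0.70, standard error 0.07, adjusted p = 8.32e-06). Both lie on chromosome 19, and their libraries did not overlap between the groups. Ndufv2, an iron-sulfur partner of Ndufv1 on chromosome 17, was higher by a log2 fold change of 0.15 (adjusted p = 0.0447). This call was lost without control 2, control 3, JAG1 1, JAG1 2 or JAG1 3 (adjusted p from 0.0610 to 0.150). It was also lost with all libraries under other settings, given in the last section. Ndufs1, the largest core subunit, fell instead, from 54.1, 49.2 and 52.99 CPM in control to 40.97, 40.3 and 43.6 CPM in JAG1 (log2 fold change −0.32, standard error 0.07, adjusted p = 0.00190). The core subunits Ndufs3 and Ndufs7 had log2 fold changes of 0.13 and 0.04 and were not called. The core of the complex was thus split between higher, lower and uncalled genes.

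The accessory subunits of complex I moved in both directions. Ndufb8, a subunit of the membrane arm on chromosome 19 and the most abundant complex I row, was read at 586, 544 and 531 CPM in control and 887, 921 and 905 CPM in JAG1 (log2 fold change 0.71, standard error 0.05, adjusted p = 5.70e-07). Ndufb9, a membrane arm subunit on chromosome 15, was at 442, 413 and 390.4 CPM in control and 298, 306 and 281 CPM in JAG1 (log2 fold change −0.49, standard error 0.06, adjusted p = 2.74e-05). Ndufa6, a subunit of the LYR family on the same chromosome, whose promoter window is printed above, was at 277, 261 and 271 CPM in control and 181, 189.7 and 189 CPM in JAG1 (log2 fold change −0.53, standard error 0.05, adjusted p = 3.93e-06). In all 3 genes the groups did not overlap, and the fall of Ndufa6 and Ndufb9 was close to the median of their chromosome. Away from these chromosomes, the accessory subunit Ndufb2 rose from 54.7, 52.8 and 58.01 CPM to 78.1, 78.99 and 77.2 CPM (log2 fold change 0.50, standard error 0.06, adjusted p = 3.61e-05), again without overlap. The last 300 bases of its transcript share a near-identical stretch with transcripts of Braf and Gm42420. Position and strand of the match were not checked, and its reads are uncertain. Ndufa1, Ndufb10, Ndufa13 and Ndufb3, further accessory subunits, were higher by 0.35, 0.31, 0.25 and 0.16 on the log2 scale, and Ndufb6 was lower, at −0.24 on the same scale. The calls of Ndufb3 (without JAG1 1) and Ndufb6 (without control 2, control 3, JAG1 1 or JAG1 3) were lost when a library was left out. Leaving out control 1 made Ndufs6 higher and Ndufc2 lower, and leaving out control 3 made Ndufa4 and Ndufa8 higher and Ndufb7 lower, Ndufa8 also without JAG1 1.

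Ndufa4 and its paralog Ndufa4l2, a gene known to be induced by hypoxia, stood at different levels. Ndufa4l2 was low, at 7.41, 7.52 and 7.32 CPM in control and 5.08, 4.75 and 4.25 CPM in JAG1, and fell (log2 fold change −0.65, standard error 0.13, adjusted p = 0.00120). Ndufa4 was read at 85.1, 108 and 145 CPM in control and 115, 118 and 129 CPM in JAG1, with overlapping groups and a spread of the controls that covered the JAG1 libraries (log2 fold change 0.09, standard error 0.15, adjusted p = 0.620). Of the reads of the pair, Ndufa4l2 took 6.43 ± 1.61% in control and 3.77 ± 0.527% in JAG1 (SD, n = 3).

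The 4 genes of complex II, the succinate dehydrogenase that also serves the citric acid cycle, went apart. Sdhb, the iron-sulfur subunit, was read at 239, 224 and 221 CPM in control and 302, 286 and 307 CPM in JAG1, without overlap (log2 fold change 0.39, standard error 0.05, adjusted p = 8.68e-05). Sdha, which carries the flavin, was at 97.8, 98.3 and 102 CPM in control and 95.2, 97.02 and 98.1 CPM in JAG1 (log2 fold change −0.04, standard error 0.05, adjusted p = 0.551). The membrane anchor Sdhc was at 179.9, 178 and 189 CPM in control and 174, 169.6 and 192 CPM in JAG1 (log2 fold change −0.03, standard error 0.06, adjusted p = 0.657), and in both genes the groups overlapped. The other anchor, Sdhd, ran from 12.4 to 112 CPM within the control group, at 12.4, 62.4 and 112 CPM in control and 86.3, 143 and 116 CPM in JAG1, and the difference did not pass the test (log2 fold change 0.88, standard error 0.50, adjusted p = 0.160). Such a spread was rare: the highest control library was over 1.5 times the lowest in 2 of the 68 members at 50 CPM or more, Sdhd and Ndufa4, and in 1.98% of all genes at that level. In the JAG1 group this held for 1 of the 68, Sdhd, and for 0.220% of all genes at that level. Sdhd was called higher without control 3 (log2 fold change 1.62, adjusted p = 0.0062) and without the filter on low counts (0.88, adjusted p = 0.0073). Without the row of Sdhd the log2 ratio of the sum of complex II went from 0.27 to 0.17.

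In complex III, the cytochrome bc1 complex, 5 of 8 genes were higher and 0 lower, beside 32.7% and 26.4% of all tested genes at 50 CPM or more, where all 8 lie. All 8 had a positive log2 fold change, as had 2017 of the 3637 genes at that level, and their median was 0.21. Uqcrfs1, the Rieske iron-sulfur protein, rose from 254, 249 and 269 CPM to 345, 353 and 347 CPM (log2 fold change 0.44, standard error 0.05, adjusted p = 1.68e-05). Uqcrc1, a core subunit, rose from 121, 124 and 127 CPM to 152, 159 and 159 CPM (log2 fold change 0.34, standard error 0.05, adjusted p = 0.000181). The other core subunit, Uqcrc2, had a log2 fold change of 0.14 (adjusted p = 0.0678). The small subunits Uqcr11 (125, 114 and 119 CPM in control and 145, 149 and 144 CPM in JAG1) and Uqcrh, the hinge protein (696, 653 and 631 CPM in control and 763, 791 and 802 CPM in JAG1), were higher by 0.29 and 0.25 on the log2 scale (adjusted p = 0.000841 and 0.00168). In these 4 called genes every JAG1 library lay above every control library, as in 1334 of the 3637 genes at that level. Uqcr10 was also called (log2 fold change 0.18), a call lost without control 2, control 3, JAG1 2 or JAG1 3, and Uqcrq and Uqcrb had log2 fold changes of 0.11 and 0.03. Uqcrq passed the test without control 1, and Uqcrc2 without JAG1 2. None of the 8 genes lies on chromosome 15 or 19. The heme-bearing subunit Cyc1, which the name rule does not take, lies on chromosome 15 and was lower, at 95.5 ± 3.39 CPM in control and 85.7 ± 1.60 CPM in JAG1 (SD, n = 3, log2 fold change −0.16, adjusted p = 0.0331).

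Complex IV, cytochrome c oxidase, had 4 higher, 2 lower and 7 uncalled genes among 13 tested. These were 30.8% higher and 15.4% lower, beside 27.4% and 27.7% of all tested genes. At 50 CPM or more, where 10 of the 13 lie, 32.7% of all tested genes were higher and 26.4% lower. The median of complex IV was 0.10 on the log2 scale. Cox8a, the form of subunit VIII found in most tissues, is on chromosome 19 and was read at 364, 349 and 366 CPM in control and 632, 601 and 642 CPM in JAG1 (log2 fold change 0.80, standard error 0.05, adjusted p = 1.28e-07). Cox6c, on chromosome 15, fell from 519, 518 and 575 CPM to 410.4, 328 and 397 CPM (log2 fold change −0.51, standard error 0.08, adjusted p = 0.000257). In neither did the groups overlap, and both changes lay between the quartiles of their chromosome. Off these chromosomes, Cox5a, a nuclear subunit on the matrix side, rose from 374, 384 and 401 CPM to 458, 495 and 496 CPM (log2 fold change 0.32, standard error 0.05, adjusted p = 0.000302). Cox6a1, the form found outside muscle, rose from 174, 165 and 169 CPM to 203, 207 and 208 CPM (log2 fold change 0.28, standard error 0.05, adjusted p = 0.000437). The gene Cox7b was higher by 0.15 (adjusted p = 0.0369), and it lost this call without control 2, control 3, JAG1 1 or JAG1 2. The regulatory subunit Cox4i1, at 157, 156 and 159 CPM in control and 145, 154 and 149 CPM in JAG1, did not pass the test although its groups did not overlap (log2 fold change −0.08, standard error 0.05, adjusted p = 0.221). Cox6b1, at 371, 348 and 329.7 CPM in control and 369, 389 and 367 CPM in JAG1, was not called (log2 fold change 0.10, standard error 0.06, adjusted p = 0.139) but passed the test without control 1.

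Several subunits of complex IV have paralogs of other tissues, and these were close to or below detection. Cox4i2, the lung and hypoxia form, and Cox8b and Cox8c, forms of heart, muscle and testis, had 0 reads in every library, which allows at most 0.206 CPM in the shallowest one. The testis forms Cox6b2 and Cox7b2 had at most 1 and 2 reads in a library. The muscle forms Cox6a2 and Cox7a1 were detected. Cox6a2 was at 1.14, 1.45 and 1.15 CPM in control and 1.495, 1.17 and 1.64 CPM in JAG1 (log2 fold change 0.22, adjusted p = 0.509). Cox7a1 was at 1.09, 1.45 and 1.20 CPM in control and 2.24, 1.24 and 1.82 CPM in JAG1 (log2 fold change 0.53, adjusted p = 0.131), and in both the groups overlapped. Cox6a2 thus took 0.732 ± 0.121% of the reads of Cox6a1 and Cox6a2 in control and 0.691 ± 0.115% in JAG1. Neither of these muscle forms was called.

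Cox7a2l, the supercomplex factor on chromosome 17, had the lowest adjusted p of the lower members off chromosomes 15 and 19. It was read at 292, 277 and 277 CPM in control and 196, 199 and 201 CPM in JAG1 (log2 fold change −0.51, standard error 0.05, adjusted p = 4.61e-06). Its paralog Cox7a2, the common form of subunit VIIa, was at 247, 236 and 231 CPM in control and 245, 253 and 254 CPM in JAG1, with overlapping groups (log2 fold change 0.07, standard error 0.05, adjusted p = 0.213). Of all Cox7a reads, Cox7a2l took 54.1 ± 0.318% in control and 44.0 ± 0.175% in JAG1, and Cox7a2 45.7 ± 0.298% and 55.6 ± 0.282% (SD, n = 3), so that the order of the pair was reversed between the groups in every library.

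**Figure D4:**
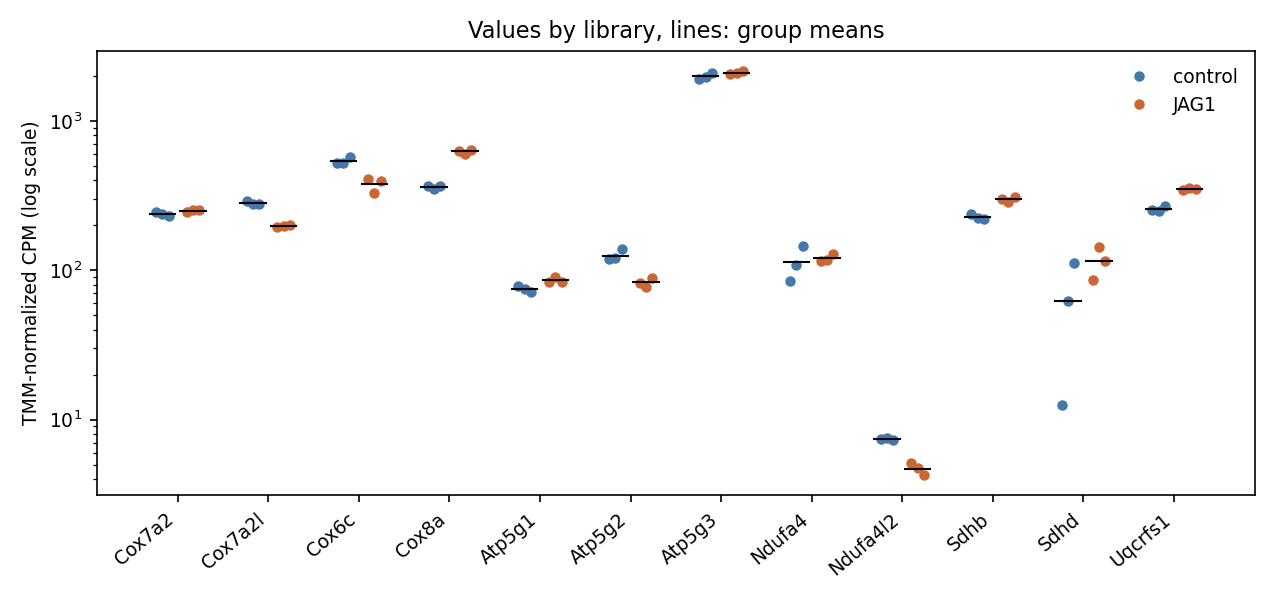
TMM-normalized CPM on a log axis (y) of 12 members (x) in the single control and JAG1 libraries, with a line at each group mean. Cox7a2l lies above Cox7a2 in control and below it in JAG1, Atp5g3 lies more than 10 times above Atp5g1 and Atp5g2 in both groups, and the control libraries of Sdhd spread from 12.4 to 112 CPM.

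Complex V, the ATP synthase, had 6 higher, 2 lower and 9 uncalled genes. These were 35.3% higher and 11.8% lower, beside 27.4% and 27.7% of all tested genes. At 50 CPM or more, where 15 of the 17 lie, 32.7% of all tested genes were higher and 26.4% lower. The log2 fold changes of complex V had a median of 0.13. In the catalytic head, the β subunit Atp5b rose from 741, 730.1 and 783 CPM to 872, 947 and 951 CPM (log2 fold change 0.30, standard error 0.05, adjusted p = 0.000636). The γ subunit Atp5c1 rose from 168, 162 and 165 CPM to 187, 182 and 208 CPM (log2 fold change 0.22, standard error 0.06, adjusted p = 0.00755). The δ subunit Atp5d was higher by 0.19, and the α subunit Atp5a1, which forms the head together with Atp5b, had a log2 fold change of 0.08 (adjusted p = 0.264). Atp5o, which joins head and stalk, and Atp5j2, a membrane subunit, were higher by 0.16 and 0.15. Both lost the call without control 2, control 3 or JAG1 2, and Atp5o also without JAG1 3, while Atp5l passed the test without control 1 and Atp5e and Atp5j without control 3. The head genes Atp5b and Atp5c1 were higher in each JAG1 library than in every control library.

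The c ring that turns in the membrane is built from 1 protein made by 3 genes, which differ in their import sequences. Atp5g3, the most abundant of all 85 rows, was read at 1904, 1959 and 2094 CPM in control and 2051, 2102 and 2158 CPM in JAG1, with overlapping groups (log2 fold change 0.08, standard error 0.05, adjusted p = 0.198). Atp5g2, on chromosome 15 and with the promoter window printed above, fell from 118, 120.0 and 138 CPM to 82.5, 77.8 and 88.2 CPM (log2 fold change −0.60, standard error 0.07, adjusted p = 3.94e-05). Atp5g1 was at 77.97, 74.4 and 70.98 CPM in control and 83.3, 90.6 and 83.2 CPM in JAG1, and its call was lost without control 2, control 3 or JAG1 2 (log2 fold change 0.20, standard error 0.06, adjusted p = 0.0185 with all libraries). The share of Atp5g3 in the reads of the 3 genes was 90.9 ± 0.168% in control and 92.6 ± 0.0622% in JAG1, that of Atp5g2 5.73 ± 0.223% and 3.64 ± 0.193%, and that of Atp5g1 3.42 ± 0.316% and 3.77 ± 0.211% (SD, n = 3). The most abundant c ring gene thus showed no called change while the low Atp5g2 fell. Atp5sl, known as the complex I assembly factor Dmac2, was the member with the lowest log2 fold change, at 13.04, 13.5 and 15.01 CPM in control and 7.18, 7.64 and 7.29 CPM in JAG1 (log2 fold change −0.91, standard error 0.11, adjusted p = 2.33e-05). Atp5s was near 1 CPM and uncalled (log2 fold change 0.46, adjusted p = 0.155).

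Reads of some members may be shared with other genes. In 21 of the 85 members a stretch of at least 100 bases in a transcript's last 300 bases matched another gene. The match was at least 98% identical to a GENCODE M21 transcript, often of a pseudogene. It could lie anywhere along that transcript and on either strand, so that reads need not be shared in every case. Among those called are Ndufb2, Ndufb6, Ndufb8, Uqcr11, Cox5a, Cox6c, Atp5g1, Atp5g2 and Atp5o, and Atp5l has 8 such partners. How the counting treated reads that fit several places is not given in the sources used here, and the values of these rows are uncertain to that extent.

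The factors that assemble the complexes are not taken by the name rule and were examined as lists of their own. Of 51 tested assembly factors 22 were higher and 11 lower, and their median was 0.16 on the log2 scale. As shares, 43.1% were higher and 21.6% lower, beside 27.4% and 27.7% of all tested genes. On chromosomes other than 15 and 19 the counts were 19 and 9 of 46, beside 26.5% of tested genes there in each direction. For complex I, 10 of 16 factors were higher and 1 lower. Among the higher ones, Ndufaf3 was at 3.51, 2.74 and 3.24 CPM in control and 6.58, 7.09 and 5.71 CPM in JAG1 (log2 fold change 1.02, standard error 0.16, adjusted p = 0.000220). Ndufaf1 and Ndufaf6 were higher by 0.59 and 0.53, and Ndufaf6 lost its call without control 1, JAG1 1 or JAG1 2. For complex III, 3 of 5 were higher and 1 lower. Bcs1l, which inserts the Rieske protein Uqcrfs1, was at 3.90, 4.40 and 4.55 CPM in control and 7.83, 10.3 and 6.92 CPM in JAG1 (log2 fold change 0.96, standard error 0.17, adjusted p = 0.000527). Uqcc3, on chromosome 19, was at 64.6, 62.98 and 59.3 CPM in control and 119, 128 and 115 CPM in JAG1 (log2 fold change 0.96, standard error 0.06, adjusted p = 2.72e-07). The complex V factor Atpaf1, which binds the β subunit, rose from 4.21 ± 0.265 CPM to 8.31 ± 1.24 CPM (SD, n = 3, log2 fold change 0.98, standard error 0.15, adjusted p = 0.000181), 1 of 3 tested. Complex II had 1 of 4 factors higher and 1 lower, Sdhaf4, which helps Sdha mature (log2 fold change −0.59, adjusted p = 0.000971).

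The 23 factors of complex IV went both ways, with 7 higher and 8 lower. These shares, 30.4% and 34.8%, lay near the 27.4% and 27.7% of all tested genes. Cox20, a chaperone of the mitochondrial subunit COX2, was at 21.4, 20.9 and 19.98 CPM in control and 34.04, 33.9 and 32.4 CPM in JAG1 (log2 fold change 0.69, standard error 0.07, adjusted p = 1.30e-05). Coa6 and, on chromosome 19, Cox15 were higher by 0.56 and 0.55 on the log2 scale. Pet117 fell from 23.1, 25.3 and 25.4 CPM to 12.4, 10.7 and 11.2 CPM (log2 fold change −1.10, standard error 0.09, adjusted p = 1.87e-06). Cmc1 went from 44.2, 47.2 and 44.99 CPM to 29.1, 26.7 and 29.7 CPM (log2 fold change −0.67, standard error 0.07, adjusted p = 1.31e-05). Lrpprc, which keeps mitochondrial mRNAs stable, was the most abundant of these genes and fell from 751, 691 and 581 CPM to 409, 355 and 339 CPM (log2 fold change −0.87, standard error 0.09, adjusted p = 1.27e-05). Taco1, a translational activator of the mitochondrial subunit COX1, was lower, with a log2 fold change of −0.53 (adjusted p = 0.00749). None of Pet117, Cmc1, Lrpprc and Taco1 lies on chromosome 15 or 19, and in each the groups did not overlap. JAG1 lay below control without overlap in 3617 of all 11712 tested genes.

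**Figure D5:**
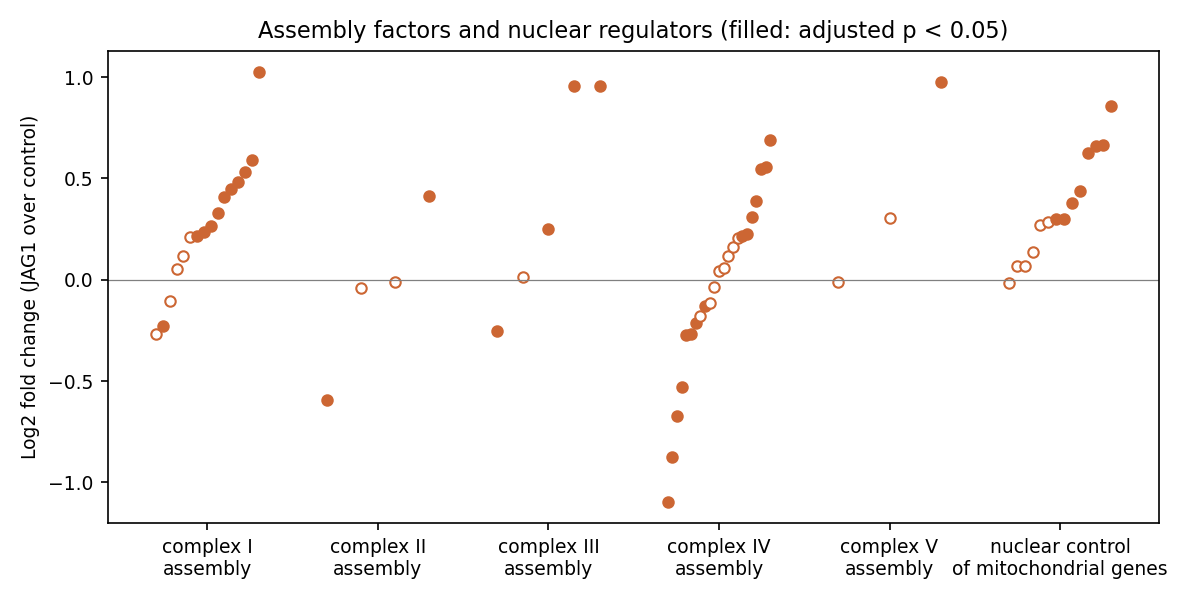
Log2 fold change of JAG1 over control (y axis) of the tested assembly factors of each complex and of the nuclear regulators (x axis groups), filled where the adjusted p was under 0.05. Ppargc1a, whose control libraries lay below 3 reads, is not drawn, and the factors of complex IV reach from −1.10 to 0.69 whereas the drawn regulators lie at −0.02 or above.

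Of the nuclear genes known to control mitochondrial genes, 9 of 15 tested were higher and 0 lower, beside 27.4% and 27.7% of all tested genes. The median was 0.30 on the log2 scale. On chromosomes other than 15 and 19 the counts were 7 and 0 of 12, beside 26.5% of tested genes in each direction. Both counts of higher genes include Ppargc1a, the coactivator PGC-1α, which passed the filter on low counts only through its JAG1 libraries. Higher was therefore the only call open to Ppargc1a. No control library held more than 2 reads of it, and the JAG1 libraries were at 3.29, 2.27 and 3.77 CPM. Against the limit of 3 reads in a control library (0.161 CPM, the highest of the 3), the JAG1 mean was at least 19.3-fold higher. It was still a rare transcript in the JAG1 cells. Esrra, the estrogen-related receptor α, was at 49.7 ± 3.51 CPM in control and 90.1 ± 4.02 CPM in JAG1 (SD, n = 3, log2 fold change 0.86, standard error 0.07, adjusted p = 1.37e-06). The coactivator Pprc1 was higher by 0.67 (adjusted p = 2.95e-05), and both genes lie on chromosome 19. The GABP subunits Gabpb1 and Gabpb2 were higher by 0.63 and 0.66 (adjusted p = 0.00119 and 2.09e-05), as were Tfb2m, Hif1a, Nrf1 and Tfam by 0.44, 0.38, 0.30 and 0.30. Nrf1, whose core was searched for in the promoters above, was at 31.8, 36.6 and 35.5 CPM in control and 40.97, 45.4 and 41.6 CPM in JAG1. Gabpa, Yy1, Ppargc1b, Tfb1m, Polrmt and Myc were not called, and Esrrg had 0 reads.

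Subunits and partners outside the name rule were looked at as a further list of 7 tested genes, of which 4 were higher and 1, Cyc1, lower. All 7 lie at 50 CPM or more, where 32.7% of all tested genes were higher and 26.4% lower. Usmg5, a synthase subunit on chromosome 19, was at 82.5 ± 6.33 CPM in control and 142 ± 5.47 CPM in JAG1 (log2 fold change 0.79, adjusted p = 1.83e-06). Higd1a, known as a hypoxia-induced partner of complexes III and IV, was at 92.97 ± 5.36 CPM and 147 ± 4.74 CPM (log2 fold change 0.66, adjusted p = 2.93e-06), and Higd2a was higher by 0.26. Cytochrome c itself, Cycs, was at 87.4 ± 2.39 CPM and 105 ± 0.969 CPM (log2 fold change 0.26, adjusted p = 0.00164). Atpif1, the inhibitor of the synthase, and the small synthase subunit 2010107E04Rik had log2 fold changes of 0.02 and 0.07 and were not called. For the subunits encoded by the mitochondrial genome, none of the 26 names searched matched a row, so they were not analysed here.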

How the data were processed

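Total RNA of 3 control and 3 JAG1 libraries was measured by QuantSeq 3′ mRNA sequencing. The authors deposited, for 23282 rows per library, raw read counts and the log2 of normalized read counts. The submitters' processing notes name Bowtie2, bedtools, edgeR and the builds GRCm38 and mm10. Versions, annotation, strand setting and the treatment of reads with several matches are not given in the sources used here. Counts were tested in R 4.3.3 with edgeR 4.0.16: filterByExpr (minimum count 10) left 11712 genes, followed by TMM factors, the quasi-likelihood test of JAG1 against control without further terms, and Benjamini-Hochberg adjustment over all tested genes at 0.05. Standard errors were computed as the log2 fold change over the root of its F value. The deposited log2 values served 1 alternative, with limma 3.58.1, and DESeq2 1.42.0 and the others are given with their effect below. The fit was tested on simulated data. Chromosomes came from RefSeq GRCm38.p6, where 82 members matched a symbol and 3 a synonym. No set of genes was tested, and lists are given by counts and medians. The members and lists were chosen with earlier results of these data known. Genes named were Jag1, the members on chromosomes 15 and 19, the Sdh genes, the listed isoforms, the most abundant row and the 3 strongest called genes of each complex in each direction, and called members, assembly factors and regulators with a log2 fold change of at least 0.5 in size, and further names with their values were added after the values were seen. The values of 1 member are counted but not reported here.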

Additional observations from a re-analysis of the deposited data

How the results depend on the processing

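With the spread of 3 libraries per group, small changes near the threshold depend on single libraries. The counts of higher and lower members moved from 25 and 9 to 4 and 3 when a change of 1.5-fold was required (all tested genes 1395 and 1711), and the lower members to 5 without those on chromosomes 15 and 19. The log2 ratio of the summed CPM of complex I was 0.095 with upper-quartile factors, 0.076 without members on chromosomes 15 and 19 and 0.027 without its most abundant row, and that of complex IV 0.082, 0.083 and −0.016, so that the last reversed. Complex II was at 0.17 without Sdhd, an alternative chosen after seeing the data. Leaving out 1 library gave 19 to 29 higher and 8 to 10 lower members and a median of their log2 fold changes of 0.09 to 0.12. The same fits gave 2724 to 3256 higher and 2792 to 3344 lower genes in all, and log2 ratios of 0.11 to 0.13 for complex I, 0.21 to 0.33 for complex II, 0.22 to 0.25 for complex III, 0.10 to 0.12 for complex IV and 0.10 to 0.14 for complex V. Ndufa4 ran from −0.078 (without control 1) to 0.31 (without control 3, called) and Sdhc from −0.086 (without JAG1 3) to 0.0040 (without JAG1 2), with a change of sign in both. Of 742 values of the 53 genes named by the rule, under 14 alternatives, 722 kept their direction and side of the threshold. A further 13 values, in 3 genes, lost the call, 5 gained it and 2 changed sign. Names added later are not in this count. Among them, Ndufv2, Uqcr10, Atp5o, Atp5j2, Ndufb3 and Ndufb6 lost their calls under some alternatives. The replicate numbers were not taken as a pairing of the libraries, although every library correlated best with its own number. The correlations of deviations for the same number were 0.148, 0.0614 and 0.119, and 0.0614 fell short of the limit set for each. A replicate block gave 29 higher and 9 lower members (3380 and 3331 of all tested genes), adding Atp5j, Atp5l, Ndufa8 and Sdhd (1.21). Sdhd was also called without a filter on low counts (adjusted p = 0.0073). Ndufv2 and Cox7b also lost the call with DESeq2, with the deposited log2 values in limma and with upper-quartile factors. Without the filter Ndufv2 lost it too, and Uqcr10, Atp5o and Atp5j2 lost theirs with upper-quartile factors. Upper-quartile factors gave the lowest median of the members, 0.07, with that of all tested genes at −0.02. The causes of these changes were not tested.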
